A study of Mus musculus with 10 samples.

Results

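The enzymes of oxidative phosphorylation are built from subunits encoded in the nucleus and in mitochondrial DNA, and the nuclear-encoded subunits are described here complex by complex. Genes were taken by mouse symbol: those beginning with Nduf other than the Ndufaf assembly factors stand for complex I, Sdha to Sdhd for complex II, those beginning with Uqcr for complex III, those beginning with Cox4 to Cox8 for complex IV, and those beginning with Atp5 for complex V. Of 27151 genes in the table, 91 matched, 8 of these were pseudogenes or a non-coding RNA named as one and were left out, and 83 remained: 38 for complex I, 4 for complex II, 8 for complex III, 16 for complex IV and 17 for complex V. Every one of the 83 passed the filter on low values and was tested. The rule goes by name, so it counts under complex I Ndufa4, now known as a complex IV subunit, and its paralogue Ndufa4l2, under complex IV Cox7a2l, a factor of respiratory supercomplexes, and under complex V Atp5s, which is not a core subunit. It misses the complex III subunit cytochrome c1 (Cyc1) and the complex V genes Atpif1 and Usmg5, which are given apart.

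The libraries were 6 from tongues of mice given SP2509, an inhibitor of the histone demethylase LSD1 (Kdm1a), and 4 from tongues of mice given vehicle. Mice of both groups were C57BL/6J, and all had received 4NQO, a chemical used to induce oral carcinogenesis. The titles of the treated libraries carry an h after the compound's name that the labels do not explain. Age, dose and time were not given in the sources used. Nothing in the labels ties a library to a mouse of its own, so p-values measure only how far these libraries spread, part of which may be technical.

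Complex I takes electrons from NADH and complex II takes them from succinate, and both pass them to coenzyme Q. Complex III moves them on to cytochrome c, complex IV passes them to oxygen, and complex V uses the proton gradient built on the way to make ATP. Striated muscle is rich in mitochondria and uses its own isoforms of several complex IV subunits, and the tongue is a muscular organ under a stratified epithelium.

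Whole reads behind the normalised values summed to 15748571 to 19375555 per SP2509 library and to 9180844 to 14768955 per vehicle library, and mitochondrial genes took 24.0% to 32.2% of reads in SP2509 libraries against 35.3% to 52.1% in vehicle libraries. SP2509 replicates 1 and 2, and likewise 4 and 5, lay much closer to each other than other libraries of a group did. Among genes with 1000 to 5000 reads their spread was 3.49 and 3.72 times the Poisson variance, against 11.2 to 162 times in the other 19 pairs. The libraries of a close pair may be repeats of 1 sample, which the labels do not settle. Means and SDs below therefore count each such pair as 1 unit (n = 4 SP2509 units and 4 vehicle libraries), while the main test used all 10 libraries. If the pairs are repeats, the main test and its SEs count those samples more than once. With the pairs merged, limma called 0% of tested genes. All 15 skeletal muscle markers were above 0 in every library, although Tnnc2, at 1.49 to 8.14 normalised reads in SP2509 libraries and 5.56 to 12.6 in vehicle libraries, stayed under the filter. All 10 keratinocyte markers were also above 0 in every library.

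Across the 83 genes, subunit transcripts tended to be more abundant in SP2509 libraries, but few passed the test. The log2 fold change, SP2509 minus vehicle, was positive for 75 of 83 genes, against 51.9% of all tested genes, and its median was 0.36, against 0.02 over all tested genes. By limma at a Benjamini-Hochberg adjusted p under 0.05, Cox5a and Cox8a rose (higher calls made up 4.95% of all tested genes) and Cox4i2 fell (lower calls, 4.15%). These 3 calls are 3.61% of the members, a smaller share than the 9.1% called among all tested genes in either direction. At an unadjusted p under 0.05 there were 24 members, against 28% of all tested genes, and edgeR on the recovered whole reads called the same 3 genes, all of complex IV, against 8.76% of all tested genes. DESeq2 on the same reads called 13 members higher and 2 lower, against 9.4% of all tested genes higher, 8.16% lower and 17.6% in all, with 3 of its calls in complex I, 1 in complex II, 1 in complex III, 6 in complex IV and 4 in complex V.

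SP2509 replicate 6 and vehicle replicate 1 held most of the extreme values. SP2509 replicate 6 held the highest value of all 10 libraries in 77 of 83 members, against 21.1% of all tested genes, and vehicle replicate 1 held the lowest in 70 of 83, against 19.1%. The value in SP2509 replicate 6 was a median 1.81 times the mean of SP2509 replicates 1 to 5, with a range over members of 0.611 to 3.64. The mean log2 value of all members was 12.00 in SP2509 replicate 6 and 11.03 to 11.21 in SP2509 replicates 1 to 5, against 10.42 in vehicle replicate 1 and 10.76 to 11.28 in vehicle replicates 2 to 4. Vehicle replicates 2 and 3 thus lay above most of the SP2509 libraries.

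The same libraries stood at the ends for skeletal muscle markers. The mean log2 level of the 14 tested markers was 15.34 in SP2509 replicate 6 and 13.65 to 14.28 in SP2509 replicates 1 to 5, against 12.67 in vehicle replicate 1 and 13.25 to 13.98 in vehicle replicates 2 to 4. The summed level of the list ran from 368254 to 994660 normalised reads in SP2509 libraries and from 215403 to 435695 in vehicle libraries. The fold change was positive for 12 of the 14, and the median was 0.85. Limma and edgeR called none of the 14, with 9 at an unadjusted p under 0.05, against 28% of all tested genes. DESeq2 called 5 higher, against 9.4% of all tested genes. Keratinocyte markers went the other way in SP2509 replicate 6, whose mean log2 level of 11.27 was the lowest of the 10 libraries, and the list summed to 52999 to 262160 normalised reads in SP2509 libraries and 92483 to 131850 in vehicle libraries. Over both groups, however, the fold change was positive for 9 of the 10 keratinocyte markers. The median over the list was 0.47, and 0.81 without SP2509 replicate 6. Limma and edgeR called none of them, with 1 at an unadjusted p under 0.05, against 28% of all tested genes. DESeq2 called 1 of the 10 higher, against 9.4% of all tested genes. In whole tissue, fewer cells of a type and less RNA per cell cannot be told apart. The part of muscle content in the subunit values was not tested beyond the covariate fit given further on.

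**Figure D1:**
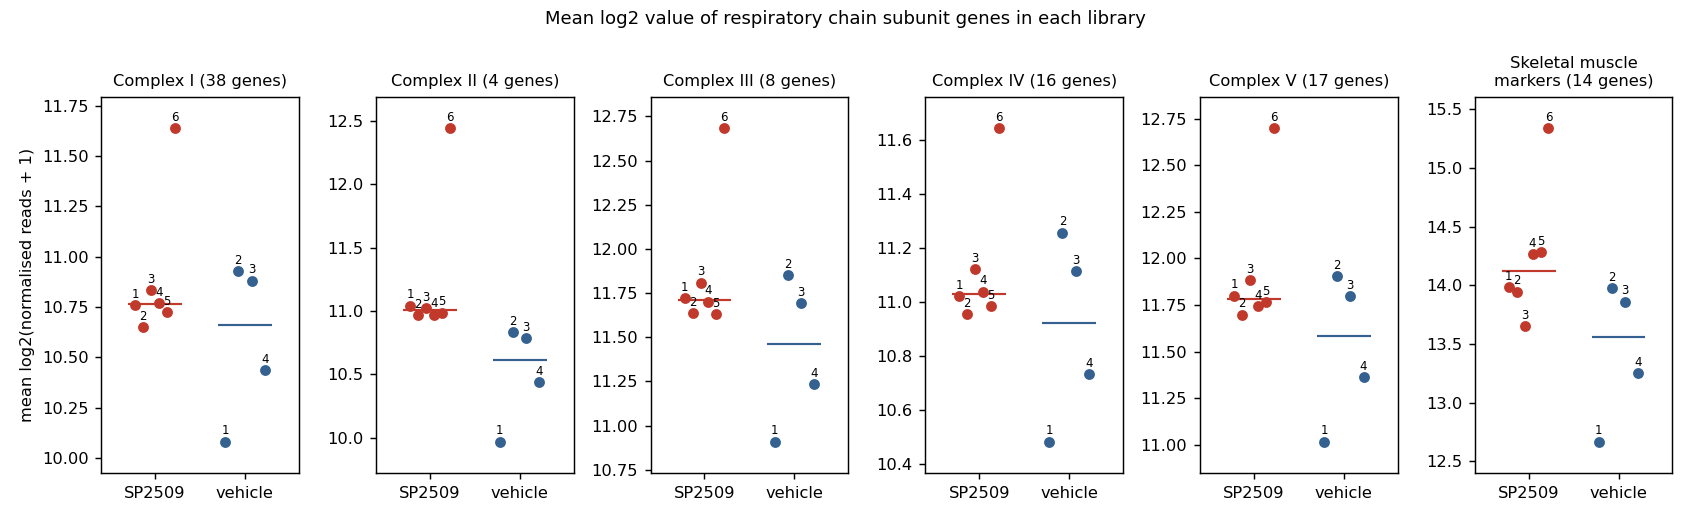
Mean log2(normalised reads + 1) over the subunit genes of each complex and over 14 skeletal muscle markers, with 1 numbered point per library (6 SP2509, 4 vehicle) and a line at each group's median. SP2509 replicate 6 is the highest point and vehicle replicate 1 the lowest point in every panel, and in complexes I, III, IV and V vehicle replicates 2 and 3 lie among or above SP2509 replicates 1 to 5.

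None of the 38 complex I genes passed the test in limma. At an unadjusted p under 0.05 there were 6, against 28% of all tested genes. Fold changes were positive in 34 of 38, with a median of 0.31 and a range of -0.26 to 0.83. The mean log2 value of the complex averaged 10.98 ± 0.44 in SP2509 units and 10.58 ± 0.40 in vehicle libraries (SD, n = 4 each).

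In the redox core of complex I the groups overlapped. Ndufv1, which binds NADH, had a lowest value of 3129, a median of 3535 and a highest value of 7944 normalised reads in SP2509 libraries, against 2268, 3724, 3774 and 3299.8 in vehicle replicates 1 to 4. Ndufs1, an iron-sulfur subunit of the same arm, had 1242, 1339 and 4099.5 in SP2509 libraries by the same order, against 1144, 1212, 1419 and 1071 in vehicle libraries. For both genes only SP2509 replicate 6 stood above the vehicle range. Ndufs7, which helps line the coenzyme Q pocket, spanned 3331 to 7373 in SP2509 libraries, against 2379 to 4574 in vehicle libraries. The Ndufs7 log2 fold change was 0.23 ± 0.25 (SE; limma, adjusted p = 0.581).

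The 3 smallest p-values of the complex were those of Ndufb6, Ndufb8 and Ndufb5, accessory subunits of the membrane arm. The arm did not move as one, as the other Ndufb genes had log2 fold changes of -0.20 to 0.53. Ndufb6 had 689, 739 and 1484 normalised reads as lowest, median and highest value in SP2509 libraries, against 271, 654, 573 and 435 in vehicle libraries, so every SP2509 library lay above every vehicle library. Its log2 fold change was 0.83 ± 0.26 (SE; limma, adjusted p = 0.064). Ndufb5 was likewise without overlap, at 1394 to 3449 in SP2509 libraries and 732 to 1278 in vehicle libraries, with a log2 fold change of 0.73 ± 0.25 (limma, adjusted p = 0.084). Ndufb8 reached 0.77 ± 0.27 (limma, adjusted p = 0.0836), with vehicle replicate 2 at 1264 above the lowest SP2509 library at 1238. Without SP2509 replicate 6 limma called Ndufb5, Ndufb6 and Ndufb8 higher, at log2 fold changes of 0.52, 0.66 and 0.56. In that fit 11.5% of all tested genes were called higher.

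Negative fold changes in complex I were confined to Ndufa4l2, Ndufb2, Ndufa5 and Ndufa12, at -0.26, -0.20, -0.05 and -0.04. Ndufa12, an accessory subunit chosen after its values were seen, differed inside both close pairs. It had 1393 normalised reads in SP2509 replicate 1 and 556 in replicate 2, and 1359.6 in replicate 4 and 651 in replicate 5, against 823, 1299, 1306 and 1094.5 in vehicle libraries. The SP2509 libraries thus lay on both sides of the vehicle range. By contrast, the median absolute log2 difference over all members was 0.0868 between SP2509 replicates 1 and 2 and 0.0555 between replicates 4 and 5.

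Complex II, succinate dehydrogenase, had the highest median fold change of the 5 complexes, 0.74, with all 4 genes positive and none called by limma. At an unadjusted p under 0.05 there were 3, against 28% of all tested genes. The median of SP2509 replicate 6 over the mean of SP2509 replicates 1 to 5 was also highest here, at 2.52-fold. The catalytic flavoprotein Sdha had 2157, 2403 and 8532 normalised reads as lowest, median and highest SP2509 value, against 1194, 2099, 2189 and 1667 in vehicle libraries, and its log2 fold change was 0.74 ± 0.35 (SE; limma, adjusted p = 0.192). Its 3.64-fold excess in SP2509 replicate 6 was the largest of all 83 members.

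Among the other complex II genes, the membrane anchor Sdhd separated the groups. Sdhd had 1145, 1203.5 and 3174 normalised reads as lowest, median and highest value in SP2509 libraries, against 608, 888, 905 and 804 in vehicle libraries, with no overlap. It averaged 1690.0 ± 990 in SP2509 units and 801 ± 136 in vehicle libraries (SD, n = 4 each). Its log2 fold change of 0.82 ± 0.27 had an adjusted p of 0.0691 by limma with all 10 libraries, and 0.59 with an adjusted p of 0.00595 without SP2509 replicate 6. The iron-sulfur subunit Sdhb and the second anchor Sdhc had log2 fold changes of 0.63 ± 0.27 and 0.73 ± 0.28 (SE; limma, adjusted p = 0.154 and 0.11), with the lowest SP2509 library just below the highest vehicle library in each.

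Complex III had a median fold change of 0.41 over its 8 genes, all positive, and none was called by limma. At an unadjusted p under 0.05 there was 1, against 28% of all tested genes. The exception in size was Uqcrc2, one of the core proteins, with 1103, 1367 and 4368 normalised reads as lowest, median and highest SP2509 value, against 506, 1001, 821 and 655 in vehicle libraries. Every SP2509 library lay above every vehicle library. Its log2 fold change was 1.13 ± 0.34 (SE; limma, adjusted p = 0.0551), and 0.84 with an adjusted p of 0.00642 without SP2509 replicate 6.

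The partner core protein Uqcrc1 had 7009 to 13645 normalised reads in SP2509 libraries and 4092 to 7738 in vehicle libraries, and its log2 fold change was 0.44 ± 0.23 (SE; limma, adjusted p = 0.232). The Rieske iron-sulfur protein Uqcrfs1 ran from 3099.6 to 8656 in SP2509 libraries and from 1899 to 3599 in vehicle libraries, with 0.59 ± 0.29 (SE; limma, adjusted p = 0.207). The small subunits Uqcr10 and Uqcr11 had log2 fold changes of 0.40 ± 0.21 and 0.08 ± 0.21 (limma, adjusted p = 0.23 and 0.833). In all of these the groups overlapped. Cyc1, the heme-bearing partner outside the symbol rule, had 0.33 ± 0.23 (SE; limma, adjusted p = 0.354), with 4165 to 9030.0 normalised reads in SP2509 libraries and 3111 to 4928 in vehicle libraries.

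Complex IV, cytochrome c oxidase, held all 3 calls and the widest range of fold changes, from -0.79 to 1.22, with a median of 0.25 and 14 of 16 positive. Cox5a, a subunit of the matrix side, had 1708, 1802 and 4670.1 normalised reads as lowest, median and highest value in SP2509 libraries, against 491, 1369.7, 1116 and 878 in vehicle libraries. The groups did not overlap. Cox5a rose by 1.22 ± 0.32 on the log2 scale (SE; limma, adjusted p = 0.0377), the largest change of the 83 genes. Without SP2509 replicate 6 it rose by 0.98 (limma, adjusted p = 0.0168). With the muscle score as a covariate its fold change was 0.46 and it was no longer called (limma, adjusted p = 0.107). Its call was kept without vehicle replicate 2 (adjusted p = 0.0399) and lost when any of SP2509 replicates 1 to 5 or vehicle replicates 1, 3 and 4 was left out alone, with adjusted p up to 0.12 (limma), and lost with the close pairs merged, no filter or no intensity trend (limma, adjusted p = 0.1, 0.0762 and 0.0712). The gene (ENSMUSG00000000088) lies on chromosome 9 at 57521274 to 57532426 on the plus strand (GRCm38).

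Cox8a, the ubiquitous isoform of a small membrane subunit, had 1853, 2277 and 2547 normalised reads as lowest, median and highest value in SP2509 libraries, against 1439, 1873, 1626 and 1731 in vehicle libraries. SP2509 replicate 6 was here the lowest SP2509 library and lay just under vehicle replicate 2, while SP2509 replicates 1 to 5 were all above the vehicle range. Cox8a rose by 0.43 ± 0.12 (SE; limma, adjusted p = 0.0483), and by 0.49 without SP2509 replicate 6 (limma, adjusted p = 0.00779). Its limma call was lost when any single library other than SP2509 replicate 6 was left out, with adjusted p up to 0.14, and with the close pairs merged, the muscle covariate, quantile normalization, no filter or no intensity trend (adjusted p = 0.158, 0.0709, 0.148, 0.0724 and 0.0723). With the muscle covariate its fold change was 0.45. The gene (ENSMUSG00000035885) lies on chromosome 19 at 7215153 to 7217616 on the minus strand. Cox6a1, the ubiquitous isoform of another small subunit, had SP2509 replicate 6 inside the vehicle range and the others above it, with 2329 to 3031 in SP2509 replicates 1 to 5 and 1563 in SP2509 replicate 6, against 1522 to 1887 in vehicle libraries. Its log2 fold change was 0.45 ± 0.17 (limma, adjusted p = 0.106) with all libraries, and it rose by 0.56 (limma, adjusted p = 0.00558) without SP2509 replicate 6.

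Cox4i2 fell and was the steadiest of the calls. This alternative isoform of subunit 4, known from lung and from hypoxic cells, had 80.6, 97.8 and 112.5 normalised reads as lowest, median and highest value in SP2509 libraries, against 159.5, 169, 175 and 173 in vehicle libraries. The groups did not overlap, and it was the one member that lay lower in each SP2509 library than in any vehicle library, against 5.11% of all tested genes. It averaged 96.0 ± 11.8 in SP2509 units and 169 ± 6.84 in vehicle libraries (SD, n = 4 each), from 744 and 513 whole reads in all. Its log2 fold change was -0.78 ± 0.15 (SE; limma, adjusted p = 0.0136). It stayed called with each library left out (adjusted p = 0.00505 to 0.0424) and with the muscle covariate at -0.70 (limma, adjusted p = 0.0364). It missed the threshold with the close pairs merged, at an adjusted p of 0.0718, the lowest over all genes in that fit. The gene (ENSMUSG00000009876) lies on chromosome 2 at 152754173 to 152765037 on the plus strand.

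The ubiquitous partner Cox4i1 had 8867 to 16097 normalised reads in SP2509 libraries and 4737 to 9570 in vehicle libraries, and 0.48 ± 0.23 as log2 fold change (SE; limma, adjusted p = 0.208). Cox5b, which binds zinc, had 0.25 ± 0.22 (limma, adjusted p = 0.476), and the supercomplex factor Cox7a2l 0.45 ± 0.15 (limma, adjusted p = 0.0677). Cox6b2, known as a testis isoform, was close to the lowest levels tested, at 24.7 to 44.0 normalised reads in SP2509 libraries and 43.1 to 69.1 in vehicle libraries, from 249 and 169 whole reads. Its log2 fold change of -0.79 ± 0.24 had an adjusted p of 0.0544 by limma, and it was called lower without SP2509 replicate 6, at -0.76 (limma, adjusted p = 0.0484).

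**Figure D2:**
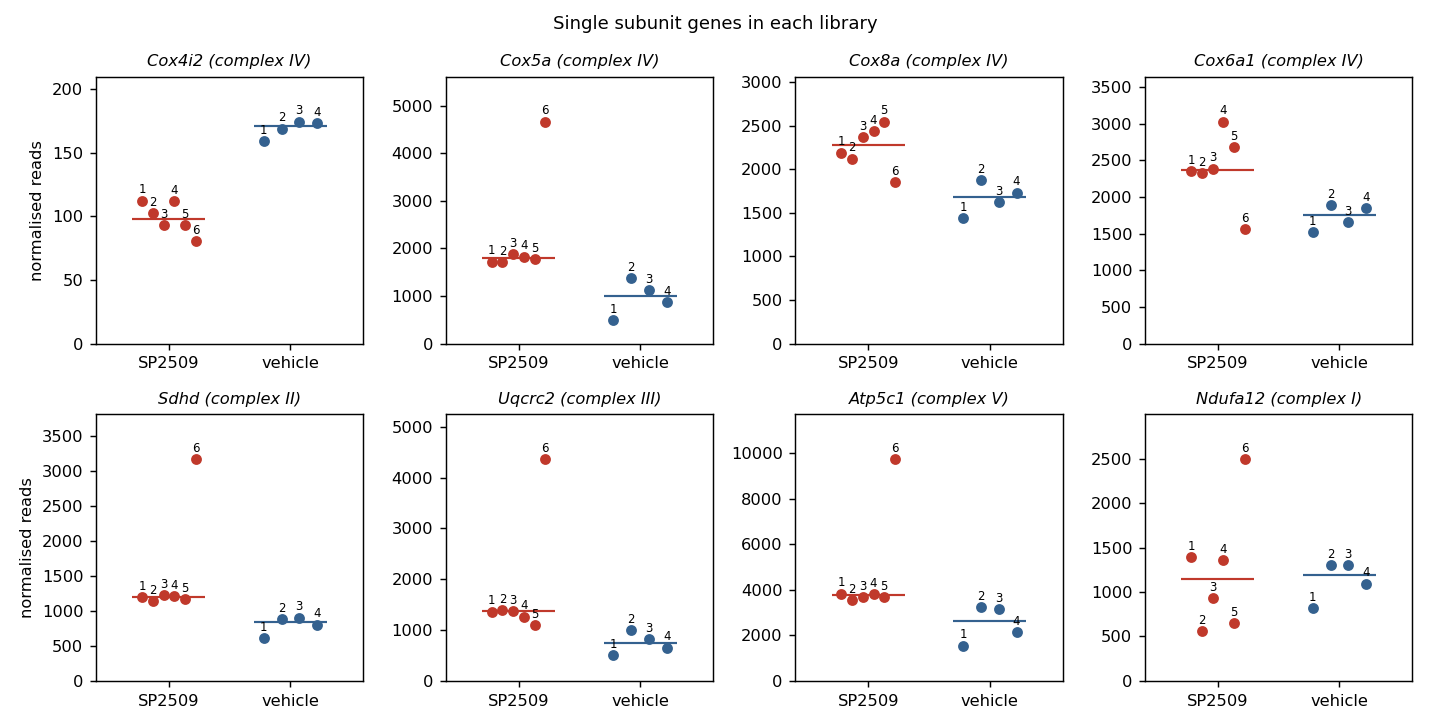
Normalised reads of 8 subunit genes, with 1 numbered point per library, SP2509 left of vehicle, and a line at each group's median. Cox4i2 lies lower in all SP2509 libraries, Cox5a, Sdhd, Uqcrc2 and Atp5c1 lie higher in all of them with SP2509 replicate 6 far above, Cox8a and Cox6a1 are lowest in SP2509 replicate 6 among SP2509 libraries, and Ndufa12 differs inside both close pairs.

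Complex V, ATP synthase, had a median fold change of 0.48 with 15 of 17 positive, and none was called by limma. At an unadjusted p under 0.05 there were 7, against 28% of all tested genes. Every SP2509 library lay above every vehicle library in 4 of the 17 complex V genes, against 6.54% of all tested genes. These 4 genes encode parts of the catalytic head or its stalks, as do Atp5d, Atp5e and Atp5h, whose groups overlapped. Atp5b, the catalytic beta subunit, had 16232, 17945.5 and 43595 normalised reads as lowest, median and highest SP2509 value, against 6896, 14705, 14453 and 11666 in vehicle libraries. Atp5a1, the alpha subunit, spanned 10862 to 31501 in SP2509 libraries and 4704 to 10525 in vehicle libraries. Their log2 fold changes were 0.83 ± 0.31 and 0.80 ± 0.32 (SE), with adjusted p = 0.102 and 0.125 by limma.

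The rotor shaft Atp5c1 had 3534 to 9738 normalised reads in SP2509 libraries and 1550.1 to 3222 in vehicle libraries, and 0.85 ± 0.30 as log2 fold change (SE; limma, adjusted p = 0.0884). The stator subunit Atp5f1 had 3439 to 8556 in SP2509 libraries and 1698 to 3065 in vehicle libraries, with 0.80 ± 0.26 (limma, adjusted p = 0.0735). Neither overlapped. Atp5g2, a gene for the proton-carrying c subunit, had 0.61 ± 0.19 (limma, adjusted p = 0.0633). Without SP2509 replicate 6, Atp5b, Atp5c1, Atp5f1 and Atp5g2 were called higher by limma at log2 fold changes of 0.61, 0.62, 0.59 and 0.51. In that fit 11.5% of all tested genes were called higher. The lowest fold change of the complex in the main fit was that of Atp5s, -0.25 ± 0.19 (limma, adjusted p = 0.393). The genes outside the symbol rule, the ATP synthase inhibitor Atpif1 and the small subunit Usmg5, had log2 fold changes of 0.09 ± 0.17 and 0.30 ± 0.22 (SE; limma, adjusted p = 0.769 and 0.404).

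In all, every SP2509 library lay above every vehicle library in 9 members, namely Ndufb5, Ndufb6, Sdhd, Uqcrc2, Cox5a, Atp5a1, Atp5b, Atp5c1 and Atp5f1, against 6.54% of all tested genes. Leaving SP2509 replicate 6 out gave more calls and lower medians. Limma then called 13 members higher and 2 lower, against 11.5% of all tested genes higher, 8.71% lower and 20.2% in all, and the medians of complexes I to V were 0.15, 0.48, 0.27, 0.10 and 0.31. With vehicle replicate 1 left out as well, the medians were 0.01, 0.28, 0.10, -0.05 and 0.12, and 48 of 83 members had a positive fold change, against 50.7% of all tested genes. In that fit, chosen after seeing the data, limma called Ndufb5, Sdhd, Uqcrc2, Cox5a, Cox6a1, Cox8a and Atp5f1 higher and Ndufb2 and Cox4i2 lower, against 8.64% of all tested genes higher, 6.05% lower and 14.7% in all.

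With the muscle marker score as a covariate the medians of complexes I to V were -0.16, 0.05, -0.08, -0.21 and -0.04, and 24 of 83 members had a positive fold change. Limma then called no member higher and called Cox4i2 and Ndufb2 lower, against 5.38% of all tested genes higher, 3.44% lower and 8.82% in all. Ndufb2, an accessory subunit, had 316 to 426 normalised reads in SP2509 libraries and 323 to 453 in vehicle libraries, so its groups overlapped, and its covariate-adjusted fold change was -0.44 (limma, adjusted p = 0.045). With the close pairs merged, limma called 0% of tested genes, while 22 members had an unadjusted p under 0.05, against 21.3% of all tested genes. With the pairs merged and SP2509 replicate 6 left out, also chosen after seeing the data, limma called Sdhd, Uqcrc2, Cox6a1 and Cox8a higher and Cox4i2 lower, against 4.5% of all tested genes higher, 3.33% lower and 7.83% in all.

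**Figure D3:**
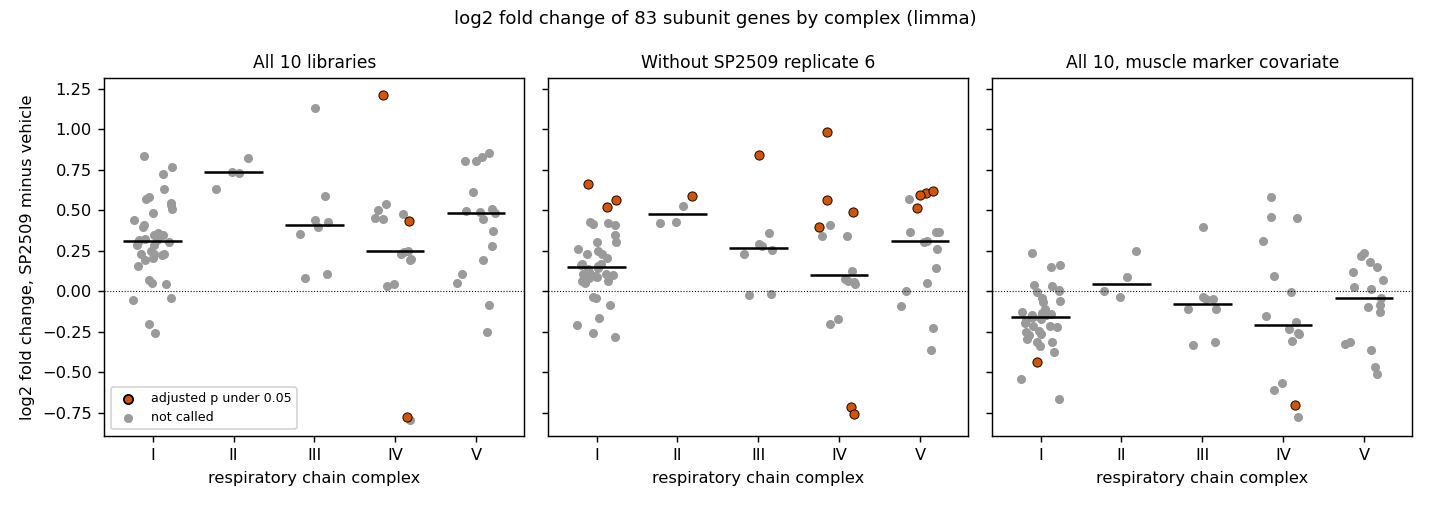
The log2 fold change, SP2509 minus vehicle, of each of 83 subunit genes by complex in 3 limma fits (all 10 libraries, without SP2509 replicate 6, and all 10 with the muscle marker score as a covariate), with lines at the medians and called genes in orange. Most points lie above 0 in the first panel with 3 calls, move down in the second with 15 calls, and lie mostly below 0 in the third, where 2 lower genes are called.

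Several subunits of complex IV come as a muscle isoform and a ubiquitous isoform, and their log2 ratio was taken within each library as a difference of log2(normalised reads + 1). Per kilobase of transcript the muscle isoform was the more abundant one in both groups. Cox6a2 stood at 4.40 times Cox6a1 in SP2509 units and 3.97 times in vehicle libraries, Cox7a1 at 2.05 and 2.62 times Cox7a2, and Cox8b at 3.23 and 3.55 times Cox8a. Cox4i2 stood at 0.00898 times Cox4i1 in SP2509 units and 0.0231 times in vehicle libraries. The muscle isoforms themselves overlapped between groups. Cox6a2 had 8370.0 to 18976 normalised reads in SP2509 libraries and 4567 to 11514 in vehicle libraries, Cox7a1 had 2378 to 6683 and 2227 to 4261, and Cox8b had 2861 to 8680.1 and 2711 to 5095. Their log2 fold changes were 0.50 ± 0.30, 0.04 ± 0.30 and 0.03 ± 0.30 (SE; limma, adjusted p = 0.284, 0.948 and 0.957).

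The log2 ratio of Cox4i2 over Cox4i1 ran from -7.62 to -6.34 in SP2509 libraries and from -5.82 to -4.88 in vehicle libraries without overlap. The difference was -1.25 (exact two-sided permutation test, p = 0.00952, adjusted over the 5 ratios 0.0476). Over 8 units it was -1.37 (exact permutation p = 0.0286, adjusted 0.143). That unadjusted p is the smallest that 70 regroupings allow. With no other ratio as low, the adjusted p could not pass at any separation, so this comparison cannot decide. The ratio of Cox7a1 over Cox7a2 differed by -0.50 (exact permutation p = 0.0381, adjusted 0.0952), with SP2509 libraries at 0.00 to 0.73 and vehicle libraries at 0.31 to 1.01. Over 8 units that difference was -0.41 (exact permutation p = 0.114, adjusted 0.238). The ratio of Cox8b over Cox8a was 2.23 in SP2509 replicate 6 and 0.37 to 0.68 in SP2509 replicates 1 to 5, against 0.82 to 1.51 in vehicle libraries. Its difference of -0.40 did not pass (exact permutation p = 0.371), and over 8 units it was -0.23 (exact permutation p = 0.686, adjusted 0.743). Without SP2509 replicate 6 the difference was -0.69 (exact permutation p = 0.0159, adjusted 0.0397). That comparison counts the libraries of each close pair as separate.

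For Cox6a2 over Cox6a1 the difference was 0.06 (exact permutation p = 0.981), with 3.60 in SP2509 replicate 6 and 1.73 to 2.04 in SP2509 replicates 1 to 5, against 1.58 to 2.69 in vehicle libraries. Ndufa4l2, known as a hypoxia-induced paralogue of Ndufa4, had 158 to 341 normalised reads in SP2509 libraries and 232 to 470.2 in vehicle libraries, while Ndufa4 had 4032 to 8586 and 1745 to 4350.3. Their log2 ratio differed by -0.84 (exact permutation p = 0.0952, adjusted 0.159).

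**Figure D4:**
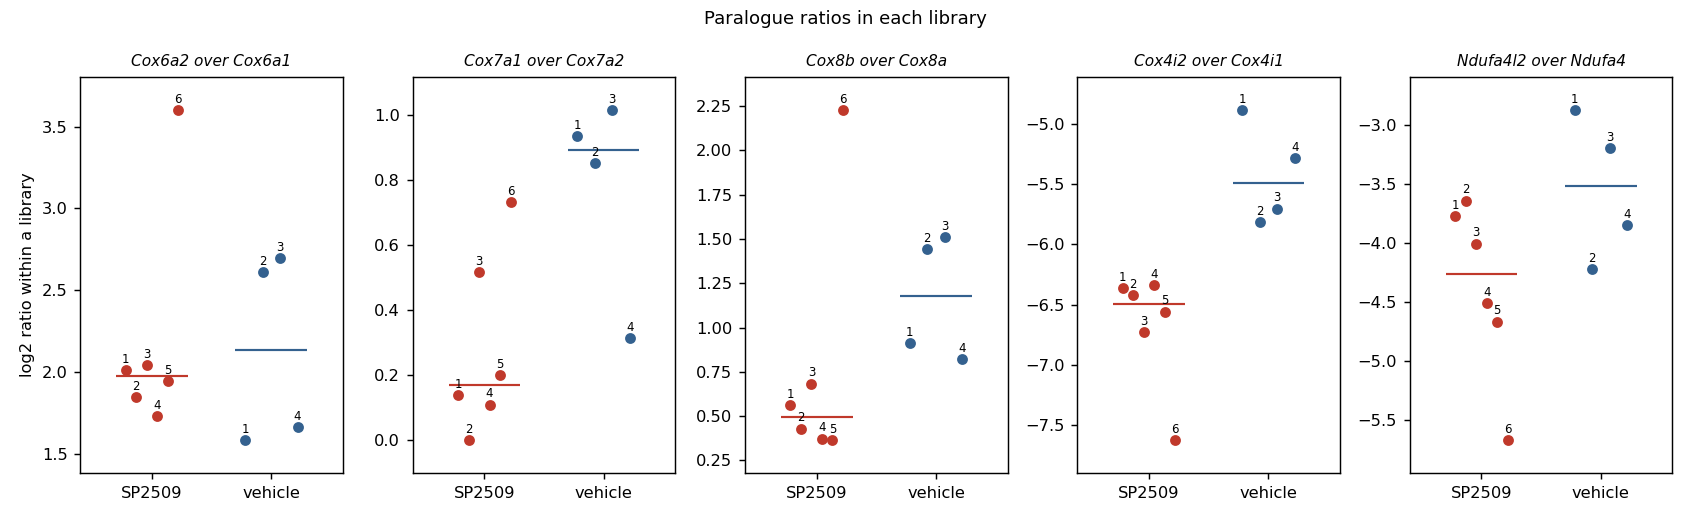
Log2 ratio of 5 pairs of paralogues within each library, with 1 numbered point per library, SP2509 left of vehicle, and a line at each group's median. Cox4i2 over Cox4i1 is lower in all SP2509 libraries (-7.62 to -6.34) than in all vehicle libraries (-5.82 to -4.88), and SP2509 replicate 6 stands far above the other SP2509 libraries for Cox6a2 over Cox6a1 and Cox8b over Cox8a.

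The promoters of the Cox8 pair and of Cox6a1 are shown because these ubiquitous and muscle isoforms parted in SP2509 replicate 6. Each sequence holds the 250 bases before the RefSeq start on GRCm38.p6, all on the minus strand: chr19:7217617-7217866 for Cox8a, chr7:140900447-140900696 for Cox8b and chr5:115348959-115349208 for Cox6a1. Capitals mark matches to 4 motifs searched on both strands. The core of the site of nuclear respiratory factor NRF1 was searched as CGCATGCG. An ETS family core was searched as TTCCGG, and an E-box of the kind myogenic factors bind as CAGCTG. The core promoter box upstream of many tissue-specific genes was searched as TATAAA. The motifs do not overlap in the sequences shown.
Cox8a: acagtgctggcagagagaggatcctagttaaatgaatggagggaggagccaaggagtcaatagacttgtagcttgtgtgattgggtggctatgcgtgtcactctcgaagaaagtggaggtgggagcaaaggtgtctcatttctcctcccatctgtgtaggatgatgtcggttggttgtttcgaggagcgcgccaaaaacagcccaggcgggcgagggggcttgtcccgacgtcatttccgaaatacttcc
Cox8b: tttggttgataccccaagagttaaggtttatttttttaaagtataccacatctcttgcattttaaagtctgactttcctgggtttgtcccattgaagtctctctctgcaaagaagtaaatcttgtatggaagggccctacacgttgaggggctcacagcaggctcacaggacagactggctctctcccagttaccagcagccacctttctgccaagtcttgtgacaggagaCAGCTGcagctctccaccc
Cox6a1: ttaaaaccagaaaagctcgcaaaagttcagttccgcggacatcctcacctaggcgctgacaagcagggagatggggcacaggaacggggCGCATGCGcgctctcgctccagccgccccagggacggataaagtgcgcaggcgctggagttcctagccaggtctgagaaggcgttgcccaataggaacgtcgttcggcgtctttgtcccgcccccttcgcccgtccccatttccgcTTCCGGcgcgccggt
Cox6a1 held 1 NRF1 core and 1 ETS core, Cox8b held 1 E-box, and Cox8a held none of the 4 in this window. A match is a description of the letters and not a bound site.

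RefSeq promoters were found for 66 of the 83 members. The NRF1 core was present in 7 of 66 (10.6%), against 1.75% of all 27025 promoters and 3.19% of those of tested genes. The ETS core was present in 20 of 66 (30.3%), against 13.6% of all and 22.8% of tested genes. The E-box was present in 9.09% of members, against 14.7% of all promoters and 15.1% of those of tested genes. The box TATAAA was present in 7.58% of members, against 14.3% of all and 8.74% of tested genes. The NRF1 core fell in 2 promoters of complex I, 1 of complex IV and 4 of complex V.

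Per kilobase of transcript, the most abundant members were Uqcrq of complex III, Atp5e of complex V and Cox6a2 of complex IV, at 19198, 19023 and 17618 normalised reads per kilobase in SP2509 units and 17022, 17254 and 12003 in vehicle libraries. The median log2 fold change was 0.25 in the 27 members with transcripts of 322 to 586 bases, 0.30 in the 28 of 595 to 971 bases and 0.51 in the 28 of 980.0 to 2900.0 bases. Without SP2509 replicate 6 these medians were 0.09, 0.17 and 0.35, and the median log2 excess of SP2509 replicate 6 over the other SP2509 libraries was 0.76, 0.82 and 1.23 in the same order. Across the 83 members Spearman's rho of length with fold change was 0.44, against -0.06 across all tested genes, as a description over genes that share libraries.

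Outside the members, 108 genes of the pathway were taken from lists of assembly factors, electron carriers, regulators, ATP export and mitochondrially encoded subunits. Among assembly factors, Sdhaf2, which helps attach flavin to Sdha, rose by 0.54 ± 0.14 (SE; limma, adjusted p = 0.0359). Coa3, a complex IV assembly factor, rose by 0.55 ± 0.13 and Tmem242, a complex V assembly factor, by 0.68 ± 0.19 (limma, adjusted p = 0.0278 and 0.0469). Cox17, the copper chaperone of complex IV, fell, with a log2 fold change of -0.59 ± 0.16 (limma, adjusted p = 0.0373), at 90.7 to 144 normalised reads in SP2509 libraries and 169 to 205.5 in vehicle libraries. Limma and edgeR called none of 16 complex I and none of 6 complex III assembly factors. At an unadjusted p under 0.05 there were 5 and 1, against 28% of all tested genes. DESeq2 called 2 higher and 1 lower among the complex I assembly factors, against 9.4% of all tested genes higher and 8.16% lower. Limma called 4.95% of all tested genes higher and 4.15% lower. Among the factors, Sdhaf2 was the 1 call of 4 for complex II. Coa3 and Cox17 were the calls of 19 for complex IV, and Tmem242 was the 1 call of 5 for complex V. With vehicle replicate 1 left out none of these 4 was called (limma, adjusted p = 0.111 for Sdhaf2, 0.091 for Coa3, 0.0726 for Cox17 and 0.143 for Tmem242), and leaving out most other single libraries also lost them, while all 4 were called without SP2509 replicate 6. With the muscle covariate the fold changes of Sdhaf2, Coa3 and Tmem242 were 0.29, 0.34 and 0.24, and these genes were not called (limma, adjusted p = 0.164, 0.112 and 0.199), while Cox17 stayed called at -0.70 (limma, adjusted p = 0.0418).

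Limma and edgeR called none of the 17 genes for electron carriers and coenzyme Q synthesis. At an unadjusted p under 0.05 there were 4, against 28% of all tested genes. DESeq2 called 2 of the 17 higher, against 9.4% of all tested genes. Cytochrome c (Cycs) had 0.77 ± 0.26 as log2 fold change (SE; limma, adjusted p = 0.0765). Limma and edgeR called none of 16 regulators of mitochondrial biogenesis, whose median was -0.03. At an unadjusted p under 0.05 there were 4, against 28% of all tested genes. DESeq2 called 1 regulator higher, against 9.4% of all tested genes. The coactivator Ppargc1a had 843 normalised reads in SP2509 replicate 6 and 195 to 282 in SP2509 replicates 1 to 5, against 206 to 457.5 in vehicle libraries.

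Adenine nucleotide carriers exchange ATP for ADP across the inner membrane. Slc25a5, the isoform of proliferating and non-muscle cells, rose by 0.92 ± 0.18 (SE; limma, adjusted p = 0.0149), with 1369.8, 2445 and 2520.5 normalised reads as lowest, median and highest SP2509 value, against 1142, 1347, 946 and 1254 in vehicle libraries. SP2509 replicate 6 was the lowest SP2509 library, yet still above all vehicle libraries. Without vehicle replicate 1 its adjusted p was 0.0537 (limma), and it was called with each other library left out. The muscle isoform Slc25a4 had 54125 in SP2509 replicate 6 and 17633 to 19479 in SP2509 replicates 1 to 5, against 8429 to 19413 in vehicle libraries, and was not called (0.71 ± 0.35; limma, adjusted p = 0.202). The difference between the fold changes of these isoforms was not tested.

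In the main fit the 13 subunits encoded in mitochondrial DNA went the other way from most of the nuclear-encoded ones. With the muscle covariate the nuclear-encoded members had a median of -0.14, with 24 of 83 positive. All 13 mitochondrially encoded subunits had a negative fold change in the main fit, with a median of -1.06. Limma called 6 of them lower: mt-Nd1, mt-Nd2, mt-Nd6, mt-Co2, mt-Co3 and mt-Atp6, against 4.15% of all tested genes called lower. On the whole reads edgeR called 7 lower, without mt-Atp6 (adjusted p = 0.0717), against 3.42% of all tested genes. DESeq2 called 11 lower, against 8.16% of all tested genes. The complex I subunit mt-Nd1 had 363014, 387775 and 513972 normalised reads as lowest, median and highest SP2509 value, against 1029081, 1231655, 806511 and 527356 in vehicle libraries, and -1.06 ± 0.29 as log2 fold change (SE; limma, adjusted p = 0.0439). The groups did not overlap. All 6 calls were kept without SP2509 replicate 6. The calls of mt-Nd1 and mt-Nd2 were also kept without vehicle replicate 4, that of mt-Co2 without SP2509 replicate 3 or vehicle replicate 4, and that of mt-Atp6 without SP2509 replicate 3. Leaving out any other single library ended each call, with adjusted p up to 0.123 (limma), and the muscle covariate ended those of mt-Co2 and mt-Atp6 (limma, adjusted p = 0.0837 and 0.0928). With quantile normalization, which gives genes of equal rank an equal value, mt-Nd1, mt-Nd2 and mt-Nd6 were not called (limma, adjusted p = 1, 0.654 and 0.111), and with the close pairs merged none of the 6 was. Libraries were prepared from poly-A RNA, and the part of the captured share of mitochondrial transcripts in this difference was not tested.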

How the data were processed

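Poly-A RNA of 10 tongue libraries (6 SP2509, 4 vehicle) was sequenced, and HISAT2, featureCounts and the build mm10 come from the submitters' processing notes. Versions, roles, annotation release, strand setting and scaling tool were not given in the sources used here, so reads of overlapping genes cannot be told apart. The deposited values are a signal per gene, and 100% of them were whole multiples of 1 read to within 0.01, so they were taken as read counts divided by 1 factor per library. One read was worth 0.727 to 0.873 normalised reads in SP2509 libraries and 0.898 to 1.85 in vehicle libraries. Of 27151 IDs, 27113 matched a symbol in GENCODE M21 (GRCm38).

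Values were tested two-sided by limma (version 3.58.1 in R 4.3.3; trended, robust moderation) as log2(value + 1), with all 10 libraries and no covariate. The 17088 genes tested had a value of 10 or more in 4 or more libraries. Log2 fold changes on this scale understate the change of low genes. Calls have a Benjamini-Hochberg adjusted p under 0.05 over all tested genes. Paralogue ratios were compared by exact two-sided permutation over 210 regroupings. Whole reads were tested with edgeR 4.0.16 and DESeq2 1.42.0. A transcript's length was the median over the gene's protein-coding transcripts, and promoters came from the RefSeq table for GRCm38.p6. Python 3.11.15 was used with SciPy 1.17.1, matplotlib 3.10.9, pandas 2.3.3 and NumPy 2.4.6.

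The members and gene lists were chosen with earlier results of these data known. Named genes were every member called, the 3 smallest p and the lowest fold change of each complex, fixed redox and catalytic subunits, both genes of 5 paralogue pairs, and in each list the genes called or else the 2 with the smallest p; not all of the last are printed, and 1 fixed subunit is not reported here. Ndufa12, Ndufb2, Cox7a2l, Ndufa5, Ppargc1a, Slc25a4, Atp5d, Atp5e and Atp5h were named after their values were seen. The alternatives were other pseudocounts (0.5 and 5) and filters (none and 50), quantile normalization, size factors without mitochondrial genes, no trend, library weights, a replicate block, a muscle covariate, merged close pairs, each library left out, and 3 added after seeing the data: a transcript length correction, SP2509 replicate 6 and vehicle replicate 1 left out together, and merged pairs without SP2509 replicate 6.

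On data simulated for this comparison from 27151 genes, with 200 genes of a mean of at least 50 changed, limma called 5.38% of genes changed 1.5-fold, 62% changed 2-fold and 99.2% changed 4-fold. False calls were 8.51%, 6.42% and 6.59% of calls. The simulated libraries were independent, with no close pairs, no outlying library and no shared muscle content. These rates therefore do not describe the test on the real libraries.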

Additional observations from a re-analysis of the deposited data

Results flagged for a closer look

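In each of these results 1 library stood apart: its gap to the nearest other library of its group took a larger part of the group's range than the 95% critical value of Dixon's test allows. Of 88 groups looked at, 36 met this and 35 of them were SP2509 replicate 6. For independent groups chance alone gives about 1 in 20. These groups share the same libraries, so the 35 flags describe 1 library and are not 35 separate events. The close pairs also break the independence that the test assumes, so that rate does not apply here. The mean log2 value of SP2509 replicate 6 was 11.64 for complex I, 12.44 for complex II, 12.68 for complex III, 11.64 for complex IV and 12.70 for complex V. Its log2 ratio was 3.60 for Cox6a2 over Cox6a1, 2.23 for Cox8b over Cox8a and -7.62 for Cox4i2 over Cox4i1. Single genes are given as log2(normalised reads + 1) in SP2509 replicate 6, the highest SP2509 value in each. In complex I these were Ndufa4 at 13.07, Ndufb5 at 11.75, Ndufb6 at 10.54, Ndufb8 at 11.63, Ndufs1 at 12.00, Ndufs7 at 12.85 and Ndufv1 at 12.96. In complex II these were Sdha at 13.06, Sdhb at 13.02, Sdhc at 12.05 and Sdhd at 11.63. In complex III these were Uqcr10 at 12.10, Uqcr11 at 12.38, Uqcrc1 at 13.74, Uqcrc2 at 12.09 and Uqcrfs1 at 13.08. In complex IV these were Cox4i1 at 13.97, Cox5a at 12.19, Cox5b at 12.95, Cox6a2 at 14.21, Cox7a2 at 11.98 and Cox8b at 13.08. In complex V these were Atp5a1 at 14.94, Atp5b at 15.41, Atp5c1 at 13.25, Atp5f1 at 13.06 and Atp5g2 at 11.52. The last was Ndufa4l2 in vehicle replicate 3, at 8.88, above the other vehicle libraries. Skeletal muscle markers were also highest in SP2509 replicate 6, with a mean log2 level of 15.34 against 13.65 to 14.28 in the other SP2509 libraries, and their part in these values was not tested.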

How the results depend on the processing

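With the muscle covariate the medians of complexes I to V were -0.16, 0.045, -0.077, -0.21 and -0.040, and the fold changes of these uncalled genes turned negative: Cox4i1 -0.0033, Cox5b -0.19, Cox6a2 -0.15, Cox7a1 -0.57, Cox8b -0.61, Cyc1 -0.12, Ndufa4 -0.0017, Ndufs1 -0.14, Ndufs7 -0.31, Ndufv1 -0.22, Sdha -0.033, Uqcr10 -0.047, Uqcr11 -0.33, Uqcrc1 -0.038 and Uqcrfs1 -0.046. Without SP2509 replicate 6 and vehicle replicate 1 together, Cox5b was at -0.054, Cox7a1 at -0.33, Cox8b at -0.36, Ndufs7 at -0.13, Ndufv1 at -0.064 and Uqcr11 at -0.20. With merged pairs and without SP2509 replicate 6, Cox7a1 was at -0.11, Cox8b at -0.16 and Uqcr11 at -0.006. Library weights gave Cox7a1 -0.045 and Cox8b -0.13, and quantile normalization gave Cox7a1 -0.053, Cox8b -0.069 and Uqcr11 -0.036. Leaving out 1 library gave -0.17 to 0.20 for Cox7a1, -0.20 to 0.18 for Cox8b and -0.091 to 0.22 for Uqcr11. It gave log2 ratio differences of -1.38 to -1.06 for Cox4i2 over Cox4i1, with an adjusted p under 0.05 only without SP2509 replicate 6. Every such comparison has fewer regroupings than the full one, so a single ratio at its smallest possible p could not pass there. It gave -0.22 to 0.24 for Cox6a2 over Cox6a1 and -0.69 to -0.29 for Cox8b over Cox8a. For Cox4i2 over Cox4i1, merged pairs gave -1.37 and leaving out SP2509 replicates 4 and 5 together gave -1.36. Both had an adjusted exact permutation p of 0.143, the lowest that a single ratio can reach with so few regroupings. Members called higher were 13 by DESeq2, 18 with library weights (13.9% of all tested genes), 13 without SP2509 replicate 6, 7 without it and vehicle replicate 1, 4 with merged pairs and without SP2509 replicate 6, and 0 with merged pairs, the muscle covariate, no filter, no intensity trend or SP2509 replicates 4 and 5 left out. Members called lower were 2 by DESeq2, library weights, the muscle covariate, no intensity trend, without SP2509 replicate 6, and without it and vehicle replicate 1, and 0 with merged pairs. Leaving out 1 library gave 0 to 13 higher and 1 to 2 lower, with 0 higher without SP2509 replicate 1, 2, 3, 4 or 5 or vehicle replicate 1, 3 or 4. Where the construction does not show it, the cause was not tested. The numbers of replicates did not pair the libraries: deviations of same-numbered libraries correlated at 0.126, 0.0324, -0.198 and 0.125, and only vehicle replicate 4 correlated best with its own number. The replicate block gave 7 members higher (6.58% of all tested genes) and 1 lower (4.5%), with Cox7a1 at -0.16 and Cox8b at -0.20. Depth limits the low genes Cox6b2 and Cox4i2 most.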

Other observations

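Cox4i2 is known from smooth muscle and pericytes, so mural cell markers were read beside it from a list added after the data were seen. All 10 markers were above 0 in every library. The mean log2 level of the list was 9.09 to 9.37 in SP2509 libraries and 9.06 to 9.77 in vehicle libraries, and it summed to 12392 to 13373 normalised reads in SP2509 libraries and 9683 to 16649 in vehicle libraries. The median log2 fold change of the 10 was -0.02, with 5 of 10 positive. The pericyte gene Higd1b fell, at 63.0 to 123 normalised reads in SP2509 libraries and 161 to 213 in vehicle libraries (log2 fold change -1.02 ± 0.22 SE; limma, adjusted p = 0.0194). Its call was lost without vehicle replicate 1, with the muscle covariate and with the close pairs merged (limma, adjusted p = 0.0682, 0.0644 and 0.0751). Notch3, a receptor of mural cells, had -0.49 ± 0.17 (limma, adjusted p = 0.0796), and Rgs5, a pericyte signalling regulator, 0.29 ± 0.21 (limma, adjusted p = 0.392). The part of mural cells in the Cox4i2 difference was not tested.

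Lingual gland transcripts set SP2509 replicates 4 and 5 apart. The mean log2 level of the tested gland markers was 16.06 and 16.10 in these libraries and 2.70 to 8.01 in the other SP2509 libraries, against 2.07 to 6.72 in vehicle libraries. The subunit genes of the 5 complexes did not follow it, with a mean log2 value over all members of 11.12 and 11.09 in SP2509 replicates 4 and 5 and 11.13, 11.03 and 11.21 in SP2509 replicates 1 to 3. Schwann cell markers had a median log2 fold change of -0.88 over 4 genes. Fibroblast markers went both ways, with 3 of 6 positive and a median of 0.02. The collagen gene Col3a1 had -0.67 ± 0.19 (SE; limma, adjusted p = 0.0427). Without vehicle replicate 2 it had -0.44, and its call was lost with the muscle covariate (limma, adjusted p = 0.0758) and when any single library other than SP2509 replicate 6 was left out. Lum, a matrix proteoglycan, had 0.64 ± 0.21 (SE; limma, adjusted p = 0.0691).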
